A study of Homo sapiens with 48 samples.

Results

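The 10 genes described here encode serine/arginine-rich (SR) splicing factors and their relatives: SRSF1, SRSF2, SRSF3, SRSF4, SRSF5, SRSF6, SRSF7, SRSF10, SRSF11 and TRA2A. They were taken by name from the gene table, where all 10 were found among 19509 genes with counts, and all 10 reached the minimum of 10000 counts over all libraries that 9991 genes met. The splicing table held 104 exon and intron events of these genes (58 cassette exons and 46 introns) and 56 alternative splice site entries. The cells were IMR90 ER:RAS, an established human lung fibroblast line that carries HRAS G12V fused to the hormone-binding part of the estrogen receptor, so that 4-hydroxytamoxifen (4OHT) switches RAS on and the cells enter oncogene-induced senescence. Cells received 4OHT or its solvent DMSO for 6 days and were then transfected with siRNAs against the splicing factors SF3B1 (siSF3B1-13, siSF3B1-16) or RBM39 (siRBM39-06, siRBM39-08) or with non-targeting siRNAs (siNT1, siNT2). RNA was taken 2 days later from cells held in 0.5% serum. This gave 6 groups of 8 libraries (2 siRNAs in each treatment, with 4 replicates of each), and every group, controls included, carried the ER:RAS construct and went through transfection.

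SR proteins bind exonic enhancers through RNA recognition motifs and recruit the splicing machinery through domains rich in arginine and serine. Many of them control their own amounts with a poison exon, a cassette exon that brings a premature stop codon into the reading frame, so that the transcript that includes it is degraded by nonsense-mediated decay while the transcript that skips it makes the protein. SF3B1 is the core protein of the U2 snRNP that holds the branch point, and RBM39 is an SR-like RNA-binding protein related to the U2AF splicing factor that works beside it.

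Of the 58 cassette exon events, 47 could be matched to the GENCODE annotation on GRCh37 by exon length and the lengths of the flanking introns, counting the alternative splice sites that an event lists. A matched exon was called a poison exon where an annotated coding transcript skips it and inserting it there gave a stop codon more than 50 nt before the last exon junction. By this rule 10 exons of 7 members were poison exons, 35 lay in the main reading frame, 2 gave no premature stop, and 11 could not be classified. Of the poison exons, 3 were matched only through those alternative sites: the events have 48 nt for the SRSF6 268-nt exon, 100 nt for the SRSF11 109-nt exon and 68 nt for the TRA2A 90-nt exon, so their PSI belongs to an event whose listed exon differs in length from the annotated exon. The exons on which the results turn are given here as GRCh37 sequence on the gene's own strand, 5′ to 3′, with the first premature stop codon in capitals. The SRSF11 117-nt exon (chr1:70697542-70697658, plus strand), the SRSF11 109-nt exon (chr1:70696778-70696886, plus strand) and the SRSF11 33-nt poison exon (chr1:70712800-70712832, plus strand) are printed whole. The SRSF6 268-nt exon (chr20:42087793-42088060, plus strand) is printed over its first 182 bases, and the SRSF3 456-nt exon (chr6:36567598-36568053, plus strand) and the SRSF10 363-nt exon (chr1:24304401-24304763, minus strand) over their first 100 bases.
SRSF11 117-nt exon: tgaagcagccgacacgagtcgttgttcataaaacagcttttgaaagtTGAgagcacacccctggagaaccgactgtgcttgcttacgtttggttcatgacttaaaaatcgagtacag
SRSF11 109-nt exon: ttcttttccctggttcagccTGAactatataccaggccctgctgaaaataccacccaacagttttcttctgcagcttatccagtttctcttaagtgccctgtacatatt
SRSF11 33-nt poison exon: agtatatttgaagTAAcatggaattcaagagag
SRSF6 268-nt exon: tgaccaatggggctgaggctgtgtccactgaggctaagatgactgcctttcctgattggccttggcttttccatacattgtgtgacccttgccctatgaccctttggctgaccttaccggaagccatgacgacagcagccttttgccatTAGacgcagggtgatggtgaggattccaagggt
SRSF3 456-nt exon: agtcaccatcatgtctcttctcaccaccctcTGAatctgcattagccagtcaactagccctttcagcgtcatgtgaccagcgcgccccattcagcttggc
SRSF10 363-nt exon: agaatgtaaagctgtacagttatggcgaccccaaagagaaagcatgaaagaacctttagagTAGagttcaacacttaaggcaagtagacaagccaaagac

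The libraries held 31467221 to 52734636 counts. The 8 fibroblast markers were expressed in every group, each with a median of at least 1 CPM (counts scaled to library size), and their summed CPM was 52000 to 59100 in DMSO siNT and 14400 to 15200 in 4OHT siNT, while markers of other cell types were low. Of 5 epithelial markers 3 had a median of at least 1 CPM in each siNT group (sums, DMSO and then 4OHT, of 20.2 to 29.8 and 8.73 to 12.2 CPM), with CDH1 under 1 CPM in every library. Of 3 endothelial markers 1 reached it (1.57 to 2.19 and 3.45 to 4.45 CPM), with CDH5 under 1 CPM in every library, and of 4 haematopoietic markers 1 did (36 to 47.5 and 71.3 to 83.8 CPM), with PTPRC and CD3E under 1 CPM in every library. Their part in the results was not tested. In bulk RNA, fewer cells expressing a gene and less RNA per cell cannot be told apart. One library, 4OHT siRBM39-08 replicate 4, had a median correlation of 0.917 with the others of its group, against 0.969 or more for the library least like the rest in each other group, so member calls that change without it are also given without it. SF3B1 ran at 311 to 396 CPM in DMSO siNT and 30.4 to 35.2 CPM in DMSO siSF3B1, and at 315 to 340 and 25.3 to 30.7 CPM in 4OHT. RBM39 ran at 158 to 185 CPM in DMSO siNT and 24.2 to 31 CPM in DMSO siRBM39, and at 115 to 127 and 13.7 to 18.4 CPM in 4OHT. Each target was thus low in every library of its own knockdown, and RBM39 was higher with siSF3B1 (277 to 319 CPM in DMSO, 234 to 260 CPM in 4OHT) than with siNT.

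Levels of different genes were compared on the mappability-corrected RPKM scale (cRPKM), which divides by length. In DMSO siNT, SRSF3 had the highest median of the 10 genes at 76.0 cRPKM, followed by SRSF6 (57.8), SRSF2 (52.0), SRSF5 (42.2), SRSF1 (41.7), SRSF11 (37.8), TRA2A (36.3), SRSF4 (33.2), SRSF7 (22.3) and SRSF10 (20.3). Neighbours in this order overlapped over the 8 libraries except at SRSF3 and SRSF6, at SRSF2 and SRSF5, and at SRSF4 and SRSF7. In 4OHT siNT the order was SRSF3 (56.0), SRSF2 (51.0), SRSF5 (47.2), TRA2A (46.7), SRSF1 (41.1), SRSF6 (38.6), SRSF11 (31.3), SRSF4 (28.4), SRSF10 (23.2) and SRSF7 (20). SRSF6 and TRA2A thus changed places: SRSF6 ranked above TRA2A in DMSO and below it in 4OHT.

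Knockdown of SF3B1 raised most of the family. In DMSO 8 members were higher than with siNT, 1 (SRSF5) was lower and 1 did not pass the test, where 36.5% of all 9991 genes tested were higher and 36.2% lower (edgeR's quasi-likelihood test, Benjamini-Hochberg adjusted p under 0.05). In 4OHT 8 members were again higher, 1 (SRSF5) lower and 1 did not pass, against 39.4% and 37.6% of all genes. Knockdown of RBM39 left more of the family unmoved: 6 members were higher and 1 lower in DMSO (23.9% and 22.2% of all genes), and 5 were higher and none lower in 4OHT (32.2% and 24.3%). The median log2 fold change of the 10 members was 0.24 with siSF3B1 in DMSO, 0.34 with siSF3B1 in 4OHT, 0.14 with siRBM39 in DMSO and 0.07 with siRBM39 in 4OHT, beside medians of 0.02, 0.03, 0.02 and 0.05 over all genes. The siSF3B1 and siRBM39 comparisons within a treatment share their siNT libraries, so their calls are not independent. Few member changes reached 1.5-fold: with a change of at least 1.5-fold required as well, 1 member passed with siSF3B1 in DMSO, 2 passed with siSF3B1 in 4OHT and none with siRBM39. The share of all genes that pass this stricter rule is not given here.

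SRSF1, the founding SR protein that promotes use of constitutive and alternative exons, rose in all 4 knockdown comparisons. The 8 DMSO siNT libraries held 209 to 231 CPM (median 221), the DMSO siSF3B1 libraries 298 to 344 CPM (median 322) and the DMSO siRBM39 libraries 281 to 298 CPM (median 289). The 4OHT siNT libraries held 213 to 222 CPM (median 220), the 4OHT siSF3B1 libraries 317 to 353 CPM (median 334) and the 4OHT siRBM39 libraries 231 to 288 CPM (median 273). Every knockdown library was above every siNT library of its treatment, while the siNT libraries of DMSO and 4OHT overlapped. SRSF1 was 1.46-fold higher with siSF3B1 in DMSO (log2 fold change 0.55 ± 0.03 SE, n = 8 and 8, edgeR adjusted p = 2.87e-19) and 1.53-fold higher in 4OHT (0.61 ± 0.03, adjusted p = 3.73e-21). With siRBM39 it was 1.32-fold higher in DMSO (0.40 ± 0.03, edgeR adjusted p = 8.34e-14) and 1.23-fold higher in 4OHT (0.30 ± 0.03, adjusted p = 2.78e-10). Of its annotated exonic bases, 32.7% are shared with a coding gene on the same strand, ENSG00000266086, so reads of the 2 genes may not have been separated there.

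SRSF3, the smallest SR protein, couples splicing to mRNA export, and it had the largest change of the 10 members with siSF3B1. It ran at 143 to 156 CPM in DMSO siNT (median 151), 215 to 248 CPM in DMSO siSF3B1 (median 230) and 181 to 213 CPM in DMSO siRBM39 (median 190). In 4OHT it ran at 104 to 114 CPM with siNT (median 112), 190 to 209 CPM with siSF3B1 (median 197) and 122 to 171 CPM with siRBM39 (median 129). No knockdown group overlapped its siNT group. With siSF3B1 SRSF3 was 1.53-fold higher in DMSO (0.61 ± 0.05, edgeR adjusted p = 2.08e-16) and 1.81-fold higher in 4OHT (0.85 ± 0.05, adjusted p = 1.25e-21). With siRBM39 the folds were 1.29 in DMSO (0.37 ± 0.05, edgeR adjusted p = 3.96e-09) and 1.22 in 4OHT (0.29 ± 0.05, adjusted p = 7.07e-07).

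SRSF7, a close relative of SRSF3 that also acts in mRNA export, had low cRPKM and rose in all 4 knockdown comparisons. Its 8 DMSO siNT libraries held 51.7 to 57.6 CPM, below all DMSO siSF3B1 (63.3 to 70.8 CPM) and all DMSO siRBM39 libraries (64.6 to 74.3 CPM). The 4OHT siNT libraries held 45.8 to 51.4 CPM, below all 4OHT siSF3B1 (58.8 to 64.0 CPM) and all 4OHT siRBM39 libraries (54.8 to 68.2 CPM). The 4 log2 fold changes were nearly alike, at 0.30, 0.35, 0.34 and 0.31 (SE 0.04 each), with edgeR adjusted p from 6.59e-10 down to 8.63e-12 for siSF3B1 and of 5.55e-11 and 4.46e-10 for siRBM39.

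SRSF2, a component of nuclear speckles, moved less. In DMSO it held 138 to 150 CPM with siNT and 155 to 170 CPM with siSF3B1, and in 4OHT 140 to 149 CPM and 171 to 194 CPM. Both siSF3B1 groups lay wholly above their siNT groups, with log2 fold changes of 0.17 ± 0.04 in DMSO (edgeR adjusted p = 2.64e-05) and 0.34 ± 0.04 in 4OHT (adjusted p = 5.10e-12). With siRBM39 the groups overlapped, at 145 to 169 CPM in DMSO (0.11 ± 0.04, edgeR adjusted p = 0.00814, but 0.107 without the replicates numbered 3) and 126 to 157 CPM in 4OHT (0.04 ± 0.04, adjusted p = 0.316). The 126 CPM was 4OHT siRBM39-08 replicate 4, without which the 4OHT change was 0.07 with an edgeR adjusted p of 0.0397. MFSD11 runs on the opposite strand over 27.7% of the exonic bases of SRSF2, and whether the counting used strand is not stated.

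SRSF4, SRSF5 and SRSF6 are related SR proteins with a pseudo RNA recognition motif beside the canonical motif, and they went different ways. SRSF5 was the only member lower with siSF3B1. It held 90.7 to 117 CPM in DMSO siNT (median 109) and 73.2 to 84.9 CPM in DMSO siSF3B1 (median 80.6), and 113 to 126 CPM in 4OHT siNT (median 123) and 81.1 to 96.1 CPM in 4OHT siSF3B1 (median 85.7). All siSF3B1 libraries were below all siNT libraries of their treatment. The level fell to 0.745 of siNT in DMSO (-0.43 ± 0.04, edgeR adjusted p = 4.56e-12) and to 0.719 in 4OHT (-0.48 ± 0.04, adjusted p = 1.14e-13). With siRBM39 it held 105 to 130 CPM in DMSO (0.13 ± 0.04, edgeR adjusted p = 0.0130) and 114 to 130 CPM in 4OHT (0.03 ± 0.04, adjusted p = 0.562). With siRBM39-08 alone (123 to 130 CPM) the DMSO change was 0.22 with an edgeR adjusted p of 0.000180, and with siRBM39-06 alone (105 to 113 CPM) it was 0.02 with an adjusted p of 0.664.

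SRSF6 responded to siSF3B1 mainly after 4OHT. In 4OHT it held 135 to 145 CPM with siNT (median 139) and 184 to 204 CPM with siSF3B1 (median 198), with no overlap and a 1.40-fold increase (0.49 ± 0.05, edgeR adjusted p = 3.92e-12). In DMSO it held 157 to 232 CPM with siNT (median 207) and 212 to 226 CPM with siSF3B1 (median 219), and the change of 0.11 ± 0.05 passed narrowly (edgeR adjusted p = 0.0480). That call was lost when any of several sets of libraries was left out: without the replicates numbered 1 the change was 0.03 with an edgeR adjusted p of 0.631, against siNT2 alone it was 0.08 with an adjusted p of 0.175, and DESeq2 gave an adjusted p of 0.0526 over all libraries. With siRBM39 the values were 191 to 228 CPM in DMSO (-0.01 ± 0.05, edgeR adjusted p = 0.849) and 116 to 162 CPM in 4OHT (-0.08 ± 0.05, adjusted p = 0.157). Without 4OHT siRBM39-08 replicate 4, the 162 CPM library, the 4OHT change was -0.13 with an edgeR adjusted p of 0.0104.

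SRSF4 responded more to siRBM39. It held 73.2 to 86.2 CPM in DMSO siNT and 86.0 to 101 CPM in DMSO siRBM39 (0.24 ± 0.04, edgeR adjusted p = 2.39e-06), and 65.1 to 71.5 CPM in 4OHT siNT and 80.9 to 95.8 CPM in 4OHT siRBM39 (0.40 ± 0.04, adjusted p = 7.31e-12). The DMSO groups touched at their edges and the 4OHT groups did not overlap. With siSF3B1 it held 81.0 to 90.2 CPM in DMSO (0.14 ± 0.04, edgeR adjusted p = 0.00210) and 65.7 to 79.1 CPM in 4OHT (0.08 ± 0.04, adjusted p = 0.0593), both overlapping siNT. The DMSO call was lost without the replicates numbered 3 (0.11, edgeR adjusted p = 0.0501) and against siNT1 alone (0.08, adjusted p = 0.180).

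SRSF10, SRSF11 and TRA2A are the SR-related members: SRSF10 can repress splicing when dephosphorylated, SRSF11 is an SR-like protein that associates with U2AF, and TRA2A is the human relative of the fly sex-determination factor Transformer-2. SRSF10 held 50.7 to 57.2 CPM in DMSO siNT and 65.6 to 90.9 CPM in DMSO siSF3B1 (0.53 ± 0.07, edgeR adjusted p = 5.54e-09), and 56.4 to 62.7 CPM in 4OHT siNT and 76.0 to 97.8 CPM in 4OHT siSF3B1 (0.51 ± 0.07, adjusted p = 1.02e-08). Both increases were without overlap, and the SF3B1 siRNAs differed in size, at 79.5 to 90.9 CPM with siSF3B1-13 and 65.6 to 72.8 CPM with siSF3B1-16 in DMSO. With siRBM39 SRSF10 held 50.7 to 63.6 CPM in DMSO (0.15 ± 0.07, edgeR adjusted p = 0.0816) and 43.5 to 67.5 CPM in 4OHT (0.02 ± 0.07, adjusted p = 0.847). Without 4OHT siRBM39-08 replicate 4, which enters the shared estimate of the spread, the DMSO change passed (0.14, edgeR adjusted p = 0.0369), and it passed with siRBM39-06 alone (0.12, adjusted p = 0.0207) and siRBM39-08 alone (0.16, adjusted p = 0.0277).

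For SRSF11 the SF3B1 siRNAs went opposite ways in DMSO. The DMSO siNT libraries held 127 to 155 CPM, the siSF3B1-13 libraries 113 to 130 CPM and the siSF3B1-16 libraries 150 to 156 CPM. The pooled change was -0.03 ± 0.07 (edgeR adjusted p = 0.702), with -0.23 for siSF3B1-13 alone (adjusted p = 0.000289) and 0.11 for siSF3B1-16 alone (adjusted p = 0.121). In 4OHT both raised it, from 108 to 123 CPM with siNT to 130 to 135 CPM with siSF3B1-13 and 153 to 158 CPM with siSF3B1-16, a pooled change of 0.31 ± 0.07 with no overlap (edgeR adjusted p = 0.000169). With siRBM39 it held 95.6 to 134 CPM in DMSO (-0.19 ± 0.07, edgeR adjusted p = 0.0272) and 75.2 to 118 CPM in 4OHT (-0.09 ± 0.07, adjusted p = 0.278), overlapping siNT both times. The DMSO decrease no longer passed without the replicates numbered 2 (-0.15, edgeR adjusted p = 0.205) or those numbered 3 (-0.19, adjusted p = 0.111).

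TRA2A held 58.6 to 67.7 CPM in DMSO siNT and 83.6 to 92.0 CPM in DMSO siSF3B1 (0.45 ± 0.04, edgeR adjusted p = 2.60e-13). In 4OHT it held 81.1 to 88.2 CPM with siNT and 91.8 to 96.6 CPM with siSF3B1 (0.17 ± 0.04, edgeR adjusted p = 0.000198). Both siSF3B1 groups lay above siNT without overlap. With siRBM39 it held 59.1 to 73.7 CPM in DMSO (0.04 ± 0.04, edgeR adjusted p = 0.471) and 80.2 to 100 CPM in 4OHT (0.10 ± 0.04, adjusted p = 0.0431). The 4OHT call was lost without 4OHT siRBM39-08 replicate 4 (0.07, edgeR adjusted p = 0.111) and whichever replicate number was left out.

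Between 4OHT and DMSO, members differed in both directions, about as often as all genes did. Every group carried ER:RAS, so RAS activation and 4OHT itself cannot be told apart here. With siNT, 3 members were higher and 5 lower in 4OHT than in DMSO, where 39% of all genes were higher and 39.1% lower, and the median of the 10 log2 fold changes was -0.09 beside 0.00 over all genes. SRSF6 fell by 0.55 on the log2 scale (SE 0.05, edgeR adjusted p = 8.16e-14) and SRSF3 fell by 0.45 (SE 0.05, adjusted p = 2.83e-12), both without overlap between 8 and 8 libraries. SRSF11 (-0.28 ± 0.07), SRSF4 (-0.22 ± 0.04) and SRSF7 (-0.16 ± 0.04) also fell without overlap, with edgeR adjusted p of 0.000591, 3.02e-06 and 0.000143. With genes of at least 1 count in total the SRSF7 change was -0.08 and did not pass (edgeR adjusted p = 0.0651). TRA2A rose 1.31-fold (0.39 ± 0.04, edgeR adjusted p = 1.13e-11) without overlap. SRSF5 (0.16 ± 0.04, edgeR adjusted p = 0.000823) and SRSF10 (0.18 ± 0.07, adjusted p = 0.0189) rose with overlapping libraries, and SRSF10 no longer passed without the replicates numbered 1 (0.12, adjusted p = 0.183) or 4 (0.13, adjusted p = 0.0819). SRSF1 and SRSF2 gave -0.01 ± 0.03 and -0.02 ± 0.04 and did not pass (edgeR adjusted p of 0.841 and 0.689).

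**Figure D1:**
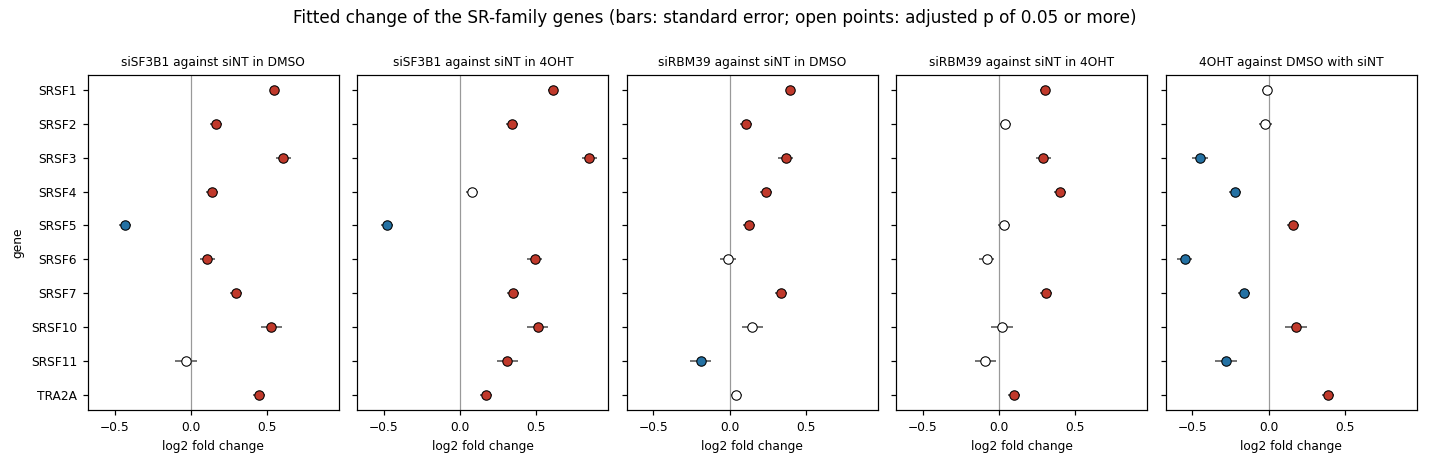
Fitted log2 fold change (horizontal axis) of the 10 genes (vertical axis) in 5 comparisons, with bars of 1 standard error; red points were called higher, blue points lower, and open points had an adjusted p of 0.05 or more. SRSF5 is the blue point at -0.43 and -0.48 in the siSF3B1 panels, and SRSF3 reaches 0.85 with siSF3B1 in 4OHT.

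The effect of siSF3B1 differed between treatments for 5 members, where 37.8% of all genes differed in either direction. It was larger in 4OHT for SRSF6 (difference 0.38 ± 0.07, edgeR adjusted p = 2.41e-05), SRSF11 (0.34 ± 0.10, adjusted p = 0.00670), SRSF3 (0.24 ± 0.06, adjusted p = 0.00266) and SRSF2 (0.17 ± 0.05, adjusted p = 0.00623), and smaller in 4OHT for TRA2A (-0.27 ± 0.06, adjusted p = 0.000203). Without the replicates numbered 2, SRSF2 (0.13, edgeR adjusted p = 0.134) and SRSF11 (0.28, adjusted p = 0.107) no longer passed. SRSF2 also failed without the replicates numbered 3 (0.16, edgeR adjusted p = 0.0612) and with siSF3B1-16 alone (0.08, adjusted p = 0.168). It failed too against siNT2 alone (0.14, edgeR adjusted p = 0.117) and with genes of at least 1 count in total (0.11, adjusted p = 0.173). SRSF11 also failed against siNT1 alone (0.34, edgeR adjusted p = 0.0632) and siNT2 alone (0.33, adjusted p = 0.0700). For siRBM39, 1 member, SRSF4, passed (0.16 ± 0.06, edgeR adjusted p = 0.0479), where 14.1% of all genes did, and leaving out the replicates numbered 1, 2 or 3 ended that call (adjusted p from 0.153 to 0.228). Without 4OHT siRBM39-08 replicate 4 the SRSF3 difference passed too (-0.13, edgeR adjusted p = 0.0417). With siRBM39-06 alone SRSF11 (0.26, adjusted p = 0.00632) and TRA2A (0.18, adjusted p = 0.00732) passed in edgeR, and with siRBM39-08 alone SRSF1 (-0.17, adjusted p = 0.00583) and SRSF5 (-0.20, adjusted p = 0.0205).

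The rest of the SR network gave the following counts. Of 31 other SR and SR-related genes, 30 were tested. With siSF3B1, 19 were higher and 5 lower in DMSO (36.5% and 36.2% of all genes) and 22 higher and 4 lower in 4OHT (39.4% and 37.6%). With siRBM39, 15 were higher and 3 lower in DMSO (23.9% and 22.2% of all genes) and 16 higher and 6 lower in 4OHT (32.2% and 24.3%). Their median log2 fold changes were 0.23, 0.36, 0.16 and 0.15, beside 0.02, 0.03, 0.02 and 0.05 over all genes. In 4OHT siNT, 6 were higher and 10 lower than in DMSO siNT, where 39% and 39.1% of all genes were. The 9 genes higher in all 4 knockdown comparisons were SRSF8, SRRM1, PNN, ACIN1, RNPS1, THRAP3, RSRP1, PNISR and SFSWAP, among them the exon junction complex partners ACIN1, RNPS1 and PNN. The share of all genes that moved in 1 direction in all 4 is not given here, and comparisons within a treatment share their siNT libraries. RSRP1 had log2 fold changes of 0.84 and 1.85 with siSF3B1 and 0.98 and 1.5 with siRBM39 (DMSO, then 4OHT), and SRRM1 had 0.89, 0.95, 0.49 and 0.65 in the same order. Among 7 kinases and import factors of SR proteins, 1 was higher and 4 lower with siSF3B1 in DMSO, 2 and 3 in 4OHT, 2 and 2 with siRBM39 in DMSO, and 2 and 3 in 4OHT, where the shares of all genes are those just given. Their medians were -0.11, 0.00, -0.11 and -0.04. SRPK1, the cytoplasmic kinase that licenses SR proteins for nuclear import, was lower in all 4 (-0.11, -0.27, -0.23 and -0.38).

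Inclusion of exons was given as percent spliced in (PSI), the share of junction reads that include the exon. A transcript that includes a poison exon may be degraded, so less inclusion and more decay cannot be told apart in a PSI. The paper states that poly(A) selection leaves little sensitivity for such transcripts. Of the 10 member exons that passed the coverage and range filters, 4 were lower and none higher with siSF3B1 in DMSO, and likewise 4 and none in 4OHT (limma on logit PSI, adjusted p under 0.05 and a difference of at least 5 points). Over all 7673 exons tested, 1.04% were higher and 25.7% lower in DMSO, and 1.04% higher and 29% lower in 4OHT. With siRBM39, 1 member exon was higher and 3 lower in DMSO (1.04% and 7.22% of all exons), and 2 were higher and 2 lower in 4OHT (1.13% and 8.21%). None differed between 4OHT and DMSO with siNT (1.60% of all exons), nor did the effect of siSF3B1 (0.613%) or of siRBM39 (0.0391%) differ between treatments. Of the 10 member exons, 5 belong to SRSF11, and 3 of these, the 62-nt, 109-nt and 117-nt exons, lie in the same 3712-nt intron and share its splice junctions, so they are not independent.

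The 117-nt and 109-nt poison exons of SRSF11 had a lower PSI with either knockdown. The 117-nt exon had a PSI of 9.80 to 27.7% in DMSO siNT (median 17.5%), 0 to 3.78% in DMSO siSF3B1 (median 2.17%) and 2.82 to 10.9% in DMSO siRBM39 (median 5.61%). In 4OHT it had 10.1 to 20.4% with siNT (median 16.8%), 0 to 2.29% with siSF3B1 (median 1.15%) and 1.82 to 5.59% with siRBM39 (median 3.29%). Only DMSO siRBM39 overlapped its siNT group, at the edge. The exon printed above thus dropped by 16.4 points with siSF3B1 in DMSO (SE 1.95, limma adjusted p = 6.92e-13) and by 15.3 points in 4OHT (SE 1.22, adjusted p = 3.25e-14). With siRBM39 it dropped by 12.4 points in DMSO (SE 2.14, limma adjusted p = 6.52e-06) and by 13.0 points in 4OHT (SE 1.30, adjusted p = 2.73e-08). Each PSI of this exon rests on 22 to 169 junction reads per library.

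The neighbouring 109-nt exon had a PSI of 12.4 to 21.5% in DMSO siNT, 0 to 9.48% in DMSO siSF3B1 and 0.660 to 9.44% in DMSO siRBM39. In 4OHT it had 7.04 to 21.3% with siNT, 1.80 to 7.33% with siSF3B1 and 2.33 to 8.49% with siRBM39. The DMSO groups did not overlap siNT and the 4OHT groups overlapped it through a single siNT1 library. The differences were -9.94 and -11.1 points with siSF3B1 (DMSO, then 4OHT, limma adjusted p of 9.68e-05 and 7.56e-06) and -9.85 and -9.61 points with siRBM39 (adjusted p of 0.00104 and 0.00127). The last of these did not pass against siNT1 alone (-7.40 points, limma adjusted p = 0.0767). The 62-nt exon of the same intron, which could not be classified, differed by -10.5 and -10 points with siSF3B1 (limma adjusted p of 3.99e-10 and 1.69e-11, no overlap) and by -5.32 points with siRBM39 in DMSO (adjusted p = 0.0293, lost without the replicates numbered 2 or 3).

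A further SRSF11 poison exon, of 33 nt in the 3044-nt intron downstream, had other values with siRBM39. Its PSI was 0 to 23.7% in DMSO siNT (median 13.9%), 0 to 2.74% in DMSO siSF3B1 (median 0%) and 4.94 to 40.2% in DMSO siRBM39 (median 17.9%). In 4OHT it was 6.98 to 44.7% with siNT (median 15.9%), 0 to 6.98% with siSF3B1 (median 0%) and 0 to 31% with siRBM39 (median 13.7%). It was at 0% in the median siSF3B1 library, with 3 to 30 reads per library over all groups, and every comparison overlapped. The mean difference with siSF3B1 was -12.7 points in DMSO (SE 3.64, two-sided exact permutation p = 0.00699) and -16.3 points in 4OHT (SE 4.35, exact permutation p = 0.000311). With siRBM39 it was 6.12 points in DMSO (exact permutation p = 0.266) and -2.30 points in 4OHT (exact permutation p = 0.702).

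In all, 50 such permutation tests were run (10 poison exons in 5 comparisons, smallest p possible 0.000155), and 17 of them, 14 in the knockdown comparisons, passed 0.05 after Benjamini-Hochberg adjustment over the 50. With the same adjustment but not counting the SRSF3 exon, whose PSI is not informative, 16 of 45 passed, 13 of them among 36 knockdown tests. No minimum difference was required, and this test was not run over all exons. These counts thus have no share of all exons beside them and do not show whether poison exons stand out. In an alternative chosen after seeing the data, each siRNA was tested alone against the same siNT libraries. These tests set 4 against 8 libraries and had their own adjustment (smallest p possible 0.00202). The siRNAs siSF3B1-13 and siRBM39-06 gave 11 calls there and siSF3B1-16 and siRBM39-08 gave 9, which are not comparable with the counts above.

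The SRSF6 268-nt exon fell with siSF3B1 in DMSO. Its PSI was 5.95 to 8.86% in DMSO siNT (median 8.04%), 1.72 to 4.64% in DMSO siSF3B1 (median 3.38%) and 4.26 to 15.3% in DMSO siRBM39 (median 9.28%). In 4OHT it was 3.40 to 5.34% with siNT (median 4.96%), 1.41 to 5.56% with siSF3B1 (median 3.05%) and 3.01 to 8.55% with siRBM39 (median 7.21%). DMSO siNT lay wholly above both DMSO siSF3B1 and 4OHT siNT. The difference with siSF3B1 was -4.53 points in DMSO (SE 0.519, exact permutation p = 0.000155) and -1.11 points in 4OHT (SE 0.569, exact permutation p = 0.0733). In the fit over all exons the DMSO difference had a limma adjusted p of 2.36e-05 but was not called, being under the 5 points required. The difference between 4OHT and DMSO with siNT was -3.17 points (SE 0.427, exact permutation p = 0.000155), in the fit over all exons with a limma adjusted p of 0.0882. With siRBM39 the exact permutation p was 0.288 in DMSO (1.36 points) and 0.0194 in 4OHT (1.95 points), the latter with 3.40 points for siRBM39-06 and 0.500 points for siRBM39-08.

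For the SRSF3 456-nt exon the PSI is not informative, because no library had more than 1 read that skips it and the siNT libraries all stood at 100%. Its use was therefore also given as inclusion reads per 100 spliced reads of the 1880-nt intron upstream, a measure chosen after seeing the data that compares different junctions and is not a PSI. This was 5.61 to 9.58 in DMSO siNT (median 8.03), 2.86 to 6.14 in DMSO siSF3B1 (median 3.76) and 4.30 to 6.52 in DMSO siRBM39 (median 5.54). In 4OHT it was 2.82 to 6.72 with siNT (median 4.80), 0.548 to 2.52 with siSF3B1 (median 1.92) and 2.36 to 4.64 with siRBM39 (median 3.53). The 4OHT siSF3B1 libraries lay below all 4OHT siNT libraries and the other comparisons overlapped. The mean differences with siSF3B1 were -3.63 in DMSO (SE 0.677, exact permutation p = 0.000466) and -2.75 in 4OHT (SE 0.529, exact permutation p = 0.000155). With siRBM39 they were -2.18 (SE 0.621, exact permutation p = 0.00482) and -1.16 (SE 0.538, exact permutation p = 0.0477), and between 4OHT and DMSO with siNT -3.17 (SE 0.717, exact permutation p = 0.00109). The spliced reads in the denominator rose with SRSF3 itself, from 422 to 505 per library in DMSO siNT to 577 to 963 in DMSO siSF3B1, while the inclusion reads went from 27 to 43 to 20 to 37.

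The other poison exons moved little or rested on few reads. The SRSF10 363-nt exon had 10.1 to 38.2% in DMSO siNT and 1.46 to 17% in 4OHT siNT, a difference of -12.5 points (SE 3.95, exact permutation p = 0.00466, limma adjusted p over all exons 0.190). In DMSO its siNT1 libraries stood at 22.8 to 38.2% and its siNT2 libraries at 10.1 to 16.3%, so the controls disagreed, and no knockdown comparison of this exon passed (exact permutation p from 0.0841 to 0.885). The TRA2A 79-nt exon stood in DMSO at 27.3 to 80.0% (siNT), 5.88 to 60.0% (siSF3B1) and 6.67 to 66.7% (siRBM39), and in 4OHT siNT at 9.09 to 50%. With 2 to 19 reads per library, its differences were -31.1 points (exact permutation p = 0.00824), -28.4 points (p = 0.0134) and -29.5 points (p = 0.00746) for siSF3B1 in DMSO, siRBM39 in DMSO and 4OHT in siNT. The TRA2A 90-nt exon, which 2 annotated coding transcripts carry, had exact permutation p of 0.387 or more throughout. The SRSF7 69-nt exon never exceeded 0.470% at 91 to 206 reads per library, and the SRSF4 195-nt exon never exceeded 8.00% at 9 to 39 reads.

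Outside the exons that met the poison exon rule, the SRSF2 104-nt exon (chr17:74731854-74731957, minus strand) responded in opposite directions. It follows the stop codon of the main reading frame, in the part of the gene that coding transcripts leave unspliced. The rule looks only for a new stop codon, so it cannot judge such an exon. Whether including this exon leads to nonsense-mediated decay was not tested. Its PSI was 1.60 to 7.69% in DMSO siNT (median 4.44%), 0 to 0.660% in DMSO siSF3B1 (median 0%) and 4.39 to 14.9% in DMSO siRBM39 (median 9%). In 4OHT it was 2.82 to 6.67% with siNT (median 5.23%), 0 to 1.29% with siSF3B1 (median 0%) and 7.01 to 15.5% with siRBM39 (median 9.89%). All siSF3B1 libraries were below, and all 4OHT siRBM39 libraries above, the siNT libraries. The differences with siSF3B1 were -4.48 and -4.80 points (limma adjusted p of 2.65e-10 and 2.82e-11), just under the 5 points required. With siRBM39 they were 4.37 points in DMSO (limma adjusted p = 0.0131) and 5.60 points in 4OHT (adjusted p = 0.00232). In DMSO the RBM39 siRNAs differed, at 4.39 to 6.57% for siRBM39-06 and 11.4 to 14.9% for siRBM39-08, and in 4OHT the change was 4.55 points without the replicates numbered 1.

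The remaining called exons give no premature stop. The SRSF10 54-nt exon (chr1:24298063-24298116, minus strand), part of the main reading frame, had 97.2 to 100% in DMSO siNT and 84.7 to 95.2% in DMSO siSF3B1, and 95.8 to 99.4% in 4OHT siNT and 85.7 to 90.6% in 4OHT siSF3B1. The differences of -8.91 and -9.75 points were without overlap (limma adjusted p of 3.47e-10 and 1.88e-07), and with siRBM39 they were -0.559 and -0.882 points (adjusted p of 0.404 and 0.739). The SRSF11 33-nt exon upstream (chr1:70688449-70688481, plus strand), which gave no premature stop, had a median of 0% in both siNT groups (highest library 7.14% in DMSO and 5.52% in 4OHT). With siRBM39 it stood at 3.88 to 15.3% in DMSO and at 0 to 13.6% in 4OHT, overlapping siNT. It rose by 6.36 points in DMSO (limma adjusted p = 4.98e-05, 4.94 points without the replicates numbered 4) and 5.18 points in 4OHT (adjusted p = 0.00129). In 4OHT siRBM39-06 stood at 6.22 to 13.6% and siRBM39-08 at 0 to 7.21%, which alone gave 1.52 points (limma adjusted p = 0.562), and the call was also lost without the replicates numbered 1 (4.11 points, adjusted p = 0.0990).

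Intron retention went up in SRSF5 with siSF3B1 and, for some introns, with siRBM39. The level of SRSF5 was lower with siSF3B1 but not with siRBM39, and a link between retention and level was not tested. Of 5 member introns that passed all filters, 2 were higher and 1 lower with siSF3B1 in DMSO (10.8% and 0.343% of 5248 introns tested), 3 higher and none lower in 4OHT (14.7% and 0.210%), 1 higher and none lower with siRBM39 in DMSO (1.91% and 0.152%), and 2 higher and none lower in 4OHT (1.92% and 0.152%). None differed between 4OHT and DMSO with siNT (0.0953% of all introns). The SRSF5 285-nt intron (chr14:70235614-70235898, plus strand), between coding exons, had 11.3 to 21.1% in DMSO siNT (median 16.3%), 42.2 to 55.2% in DMSO siSF3B1 (median 47.9%) and 26.3 to 46.4% in DMSO siRBM39 (median 36.7%). In 4OHT it had 11.6 to 20% with siNT (median 14.1%), 34.5 to 56.1% with siSF3B1 (median 46.3%) and 17.3 to 39.8% with siRBM39 (median 31.9%). All knockdown groups lay above siNT except for overlap of 4OHT siRBM39 at its lower edge. It rose by 31.1 and 30.1 points with siSF3B1 (SE 2.32 and 2.74, limma adjusted p of 8.14e-10 and 3.17e-10). With siRBM39 it rose by 20 and 16.1 points (SE 3.15 and 3.22, limma adjusted p of 4.34e-05 and 0.000324), in DMSO more with siRBM39-08 (38.6 to 46.4%) than with siRBM39-06 (26.3 to 34.8%).

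Other SRSF5 introns were retained with siSF3B1 too. The 454-nt intron (chr14:70237258-70237711) went from 0 to 3.38% in DMSO siNT to 6.49 to 13.4% with siSF3B1 (8.80 points, limma adjusted p = 1.18e-08), and from 0.360 to 2.25% in 4OHT siNT to 8.70 to 19.9% (12.3 points, adjusted p = 5.40e-11), both without overlap. The 1215-nt intron (chr14:70235969-70237183) rose in 4OHT by 8.35 points with siSF3B1 (limma adjusted p = 0.00505) and by 9.51 points with siRBM39 (adjusted p = 0.0146), from 10 to 19.4% with siNT to 18.7 to 28.7% and 19.5 to 31.5%. In DMSO its siNT libraries spread from 9.67 to 31%, and neither knockdown passed. This intron holds an SRSF5 532-nt exon that could not be classified, and how far its reads enter these values was not tested. The siRBM39 call of this intron in 4OHT was lost without the replicates numbered 3 (10 points, limma adjusted p = 0.0626) or 4 (8.28 points, adjusted p = 0.0967).

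Other introns were lower with siSF3B1, most of them tested only when the balance filter, which removes introns whose upstream and downstream ends are covered unequally, was left off. Then 15 member introns were tested, of which 5 were higher and 6 lower with siSF3B1 in DMSO (23.5% and 0.865% of 8557 introns), 6 and 6 in 4OHT (28.9% and 0.748%), 1 and 1 with siRBM39 in DMSO (6.42% and 0.409%), and 2 and 2 in 4OHT (6.75% and 0.526%). Between 4OHT and DMSO with siNT, 2 were lower (0.748% of all introns in either direction), both in SRSF6. Of the tested introns, 3 hold or flank a poison exon (2 in SRSF6 and 1 in SRSF11), and those that hold the SRSF4, SRSF7 and TRA2A poison exons and the SRSF11 33-nt poison exon did not pass the filters. How far reads of an exon inside or beside such an intron enter these values was not tested.

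The SRSF6 350-nt intron (chr20:42088061-42088410, plus strand) follows the poison exon directly and the 643-nt intron (chr20:42087150-42087792) precedes it. No annotated coding transcript splices either as an intron of its own. The 350-nt intron had 27.6 to 40.1% in DMSO siNT (median 35.8%), 6.24 to 12.1% in DMSO siSF3B1 (median 7.47%) and 29.9 to 39.4% in DMSO siRBM39 (median 33.2%). In 4OHT it had 16.3 to 22% with siNT (median 20.9%), 4.54 to 7.55% with siSF3B1 (median 6.05%) and 16.1 to 33.3% with siRBM39 (median 23.4%). It was low in every siSF3B1 library and lower in every 4OHT siNT library than in any DMSO siNT library. It dropped by 27.2 points with siSF3B1 in DMSO (limma adjusted p = 4.88e-16), by 14.2 points in 4OHT (adjusted p = 5.75e-12) and by 15 points with 4OHT in siNT (adjusted p = 0.000266). With siRBM39 it differed by -1.02 points in DMSO and 3.08 points in 4OHT and did not pass (limma adjusted p of 0.898 and 0.524). The 643-nt intron dropped by 8.69 points with siSF3B1 in DMSO (limma adjusted p = 1.31e-07) and differed by -3.72 points in 4OHT (adjusted p = 2.36e-05).

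The SRSF7 875-nt intron (chr2:38975796-38976670, minus strand) holds an annotated exon of 449 nt (chr2:38976040-38976488) known from transcripts marked for nonsense-mediated decay, while the exon events of the splicing table inside this intron could not be classified. It had 9.38 to 22.2% in DMSO siNT, 0.500 to 5.75% in DMSO siSF3B1 and 7.41 to 14.6% in DMSO siRBM39. In 4OHT it had 16.2 to 29.4% with siNT, 1.29 to 4.83% with siSF3B1 and 5.05 to 14.5% with siRBM39. All groups lay below siNT but for DMSO siRBM39, which overlapped it. The differences were -13.8 and -16.5 points with siSF3B1 (limma adjusted p of 2.99e-11 and 3.11e-12) and -5.99 and -8.98 points with siRBM39 (adjusted p of 0.0578 and 0.00343).

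In SRSF11 an intron with poison exons and an intron without one moved apart. The 3712-nt intron (chr1:70694239-70697950), which holds the 117-nt and 109-nt exons and shares reads with them, dropped by 20.6 and 18.2 points with siSF3B1 (limma adjusted p of 3.58e-12 and 2.18e-14) and by 13.9 and 12.7 points with siRBM39 (adjusted p of 0.000331 and 1.98e-05). The 104-nt intron (chr1:70716187-70716290), between coding exons, went from 0 to 0.850% in DMSO siNT to 8.99 to 19.6% with siSF3B1 (15.7 points, limma adjusted p = 2.76e-17), and from 0 to 1.69% in 4OHT siNT to 12.2 to 28.6% (18.7 points, adjusted p = 5.42e-18). With siRBM39 it was at 0 to 2.44% in DMSO and 0 to 1.71% in 4OHT (limma adjusted p of 0.218 and 0.660). Both introns beside the SRSF2 104-nt exon were lower with siSF3B1: the 613-nt intron differed by -6.14 and -6.82 points (limma adjusted p of 1.06e-06 and 2.14e-07), and the 278-nt intron by -4.21 and -6.65 points (adjusted p of 1.22e-05 and 2.61e-09), the first under the 5 points required. The SRSF1 200-nt intron (chr17:56082962-56083161), beside an exon that could not be classified, differed by -8.25 and -5.21 points with siSF3B1 (limma adjusted p of 9.13e-05 and 0.00291), with overlapping libraries.

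Alternative splice sites were given as values with no test. The SRSF5 alternative 5′ splice site that adds 129 nt had group mean usage of 59.3%, 77.1% and 59.1% in DMSO (siNT, siSF3B1 and siRBM39 in turn) and of 80.1%, 86.8% and 65.6% in 4OHT, the widest range of the alternative sites measured in every library. The SRSF11 3′ splice site that adds 3 nt stood at 53.1%, 48.6%, 50.3%, 56.3%, 45.6% and 52.6% in the same order, and the remaining sites spanned 5.07 points or less.

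Over the 48 libraries, the gene whose log2 CPM was most alike to each member was RBM23 for SRSF3 (Pearson r = 0.97), DFFB for SRSF1 (0.96), UBLCP1 for SRSF5 (0.95), TMED2 for SRSF10 (0.95), RAB1A for TRA2A (0.94), KAT8 for SRSF6 (0.94), DCAF12 for SRSF2 (0.91), PCGF2 for SRSF4 (0.91), CFDP1 for SRSF7 (0.91) and SETD5 for SRSF11 (0.88). These are descriptions over libraries that share 6 group means, and no member was the closest gene of another.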

How the data were processed

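Poly(A) RNA of 48 libraries (6 groups of 8) was sequenced. Per the study's methods the authors merged lanes and ran vast-tools (version 2, VAST-DB hg19), and per the labels edgeR, limma and hg19 were used. The authors deposited read counts per gene that were not normalised, cRPKM, a mappability-corrected RPKM, and PSI in percent for each splicing event with quality strings of read numbers. The event coordinates lay in GRCh38, so exons were matched by length and flanking intron lengths, and introns by length, to GRCh37 with GENCODE annotation, from which the sequences were read. Strand use in the counting is not given in the sources used here.

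The 10 members, the gene lists and the tests were chosen with earlier results of these data known. Members were named in full. Also named were all poison exons with a PSI in every library, the 3 called exons and 3 called introns with the largest difference per knockdown comparison, genes of the other lists called in 1 direction in all 4 knockdown comparisons, and 1 most alike gene per member. Introns tested without the balance filter were and the siRNA or replicate alternatives quoted beside them were chosen after their values were seen.

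Counts were tested with edgeR 4.0.16 (quasi-likelihood, TMM, means of 6 groups over all 48 libraries, at least 10000 counts in total, Benjamini-Hochberg adjusted p under 0.05), and CPM are TMM-scaled. PSI was tested with limma 3.58.1 on logit(0.01 + 0.98 × PSI/100), for exons and introns separately, over events with coverage scored at least very low in all libraries and a range of at least 5 points. Introns also needed a balance p of at least 0.05. A call needed an adjusted p under 0.05 and 5 points. Single poison exons were tested with a two-sided exact permutation test of 8 against 8 libraries (12870 arrangements), whose p-values are printed unadjusted. R 4.3.3, Python 3.11.15, numpy 2.4.6, pandas 2.3.3 and scipy 1.17.1 were used, with DESeq2 1.42.0 and limma-voom as alternatives. Each step across many features was tested on simulated data.

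The labels give 4 replicates per siRNA, the methods text 3, and nothing in the labels says that they came from separate cultures, so p-values measure the spread between these libraries, which may be technical. All 72 pairs of libraries with the same siRNA and treatment differed by more than counting error (chi-square per degree of freedom 1.86 or more). The 4 libraries titled 4OHT siNT2 carry siNT1 in their treatment label, and both belong to the same group. Reads without molecular identifiers are not independent molecules, so the read numbers behind a PSI give only the counting part of its error.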

Additional observations from a re-analysis of the deposited data

Results flagged for a closer look

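Of 120 groups of 8 libraries (gene levels in CPM and PSI of member events) tested for a library far from the rest, 18 held one, where chance flags about 1 in 20. The library 4OHT siRBM39-08 replicate 4 stood apart in 6 of the 10 genes, with low values for SRSF1 (231 CPM, next library 265), SRSF2 (126, next 144), SRSF10 (43.5, next 60.2) and SRSF11 (75.2, next 106) and high values for SRSF3 (171, next 139) and SRSF6 (162, next 134). The summed CPM of 5 epithelial markers ran from 7.86 to 113 in its group and from 8.73 to 12.2 in 4OHT siNT, with CDH1 under 1 CPM in every library. DMSO siNT1 replicate 1 was low for SRSF5 (90.7 CPM) and SRSF6 (157 CPM), and DMSO siRBM39-06 replicate 1 was high for SRSF6 (228 CPM) and low for SRSF11 (95.6 CPM). High values also stood apart for SRSF2 in 4OHT siNT1 replicate 4 (149 CPM) and for SRSF7 in DMSO siNT1 replicate 4 (57.6 CPM).

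Among splicing events, 1 library lay above the rest for the SRSF2 104-nt exon in 4OHT siSF3B1 (1.29%), the SRSF5 285-nt intron in 4OHT siNT (20%) and the SRSF6 643-nt intron in 4OHT siRBM39 (13.4%). The SRSF11 33-nt exon upstream had single libraries at 7.14% (siNT) and 1.08% (siSF3B1) in DMSO and at 5.52% (siNT) in 4OHT, where the next library was at 1.23%, 0% and 0%.

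The effect of siSF3B1 differed between 4OHT and DMSO for SRSF2 (log2 difference 0.17 ± 0.05, edgeR adjusted p = 0.00623), SRSF3 (0.24 ± 0.06, adjusted p = 0.00266), SRSF6 (0.38 ± 0.07, adjusted p = 2.41e-05), SRSF11 (0.34 ± 0.10, adjusted p = 0.00670) and TRA2A (-0.27 ± 0.06, adjusted p = 0.000203), and that of siRBM39 for SRSF4 (0.16 ± 0.06, adjusted p = 0.0479). For SRSF3 with siSF3B1-16 alone the difference was 0.13 with an edgeR adjusted p of 0.266. The SRSF2, SRSF11 and SRSF4 differences were lost in several settings, as given above.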

How the results depend on the processing

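No result changed its direction while passing in both settings. Apart from introns without the balance filter, the shares of all genes, exons or introns under the alternative settings are not given here. The counts below thus do not show whether members depend on the settings more than other features do. In the order siSF3B1 in DMSO, siSF3B1 in 4OHT, siRBM39 in DMSO, siRBM39 in 4OHT, 4OHT in siNT, siSF3B1 effect between treatments and siRBM39 effect between treatments, 9, 9, 7, 5, 8, 5 and 1 member genes were called. Requiring 1.5-fold as well gave 1, 2, 0, 0, 0, 0 and 0. With the replicate number as a block the counts were 9, 9, 7, 4, 8, 5 and 0, and leaving out each replicate number gave 7 to 9, 9, 4 to 7, 4 to 5, 7 to 8, 3 to 5 and 0 to 1. Without the library 4OHT siRBM39-08 replicate 4 alone, the siRBM39 counts were 8 in DMSO, 6 in 4OHT and 2 for the difference. Against siNT1 alone siRBM39 in DMSO gave 4. The siSF3B1 difference between treatments gave 3 with siSF3B1-16 alone and 3 with siNT2 alone. The siRBM39 difference gave 0 with limma-voom, with genes of at least 1 count, with siNT1 alone and with siNT2 alone, 2 with a group per siRNA, 3 with siRBM39-06 alone and 2 with siRBM39-08 alone.

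Exon calls (4, 4, 4 and 4 in the knockdown comparisons) became 2, 3, 1 and 1 at a minimum of 10 points. They became 0 in all 4 with a plain logit of PSI from 1 to 99, which leaves 1 member exon and 2 member introns to test. For siRBM39 in 4OHT siNT1 alone gave 2 and leaving out replicate numbers 2 to 4, while the other ranges were 4 to 5, 4 to 5 and 3 to 4. The block gave 4 each time. Intron calls (3, 3, 1 and 2) were 3, 3, 1 and 2 with the block and 11, 12, 2 and 4 without the balance filter, which also gave 2 for 4OHT in siNT (0 with it). A minimum of 10 points gave 1, 2, 1 and 1, no minimum gave 2 for siRBM39 in DMSO, and the plain logit gave 1 for siSF3B1 in DMSO, 2 for siRBM39 in DMSO and 1 for 4OHT in siNT. For siRBM39 in 4OHT, siRBM39-06 alone, siNT1 alone and siNT2 alone gave 1, and leaving out replicate numbers gave 1 to 2.

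The replicate numbers did not pair the libraries. Over 264 pairs with the same number the median correlation of deviations was 0.0265 (-0.00541 for other numbers), and 109 pairs were over 0.1. Of 48 libraries, 14 had their highest mean correlation with the libraries of their own number, out of 4 numbers. The block ended the calls of TRA2A with siRBM39 in 4OHT and of the SRSF4 difference, and no other call of a member gene or named event. PSI of poison exons rests on few reads, which limits what can be detected for SRSF4, TRA2A and the SRSF11 33-nt poison exon.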
